A study of Mus musculus with 12 samples.

Results

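The 8 genes described here belong to olfactory neurons. Gnal, Adcy3, Cnga2, Cnga4, Cngb1 and Ano2 carry the olfactory signal from the odorant receptor to the membrane current. Stoml3 encodes a stomatin-like protein of olfactory cilia, and Omp a marker of mature olfactory neurons. The accessible regions (peaks) counted for each of the 8 lay inside its RefSeq span or within 1 kb of either end, among 21631 protein-coding genes on chromosomes 1 to 19 and X. The 8 genes were chosen by pathway with the presence of peaks in these libraries already known, Cnga2 above all. The calls at these genes are therefore given as a description, without a test. Chromatin accessibility had been profiled by ATAC-seq, which marks where a transposase can insert into DNA, in mTEChi, the mature subset of the thymic medullary epithelium that normally makes AIRE. These cells were sorted from C57BL/6 animals aged 4 to 7 weeks. There were 6 groups of 2 libraries. The mutants were Aire-deficient mice (Aire -/-), heterozygotes for the C313Y change (Aire +/C313Y) and heterozygotes for the C442G change (Aire +/C442G). Each had its own pair of wild types (Aire +/+), an assignment assumed from how the sample titles are written. Heterozygotes keep 1 normal Aire allele, and the labels do not say how many animals a library holds or whether animals were pooled.

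In olfactory sensory neurons an odorant receptor activates the G protein whose alpha subunit is encoded by Gnal. This subunit stimulates the adenylyl cyclase Adcy3, cyclic AMP opens a cation channel built from Cnga2, Cnga4 and Cngb1, and the calcium that enters opens the chloride channel Ano2. Thymic medullary cells transcribe many genes of other tissues at low levels under the control of AIRE, so that developing T cells meet those products. C313Y and C442G each replace a cysteine in a zinc-binding PHD finger of AIRE, the first and the second finger.

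The start of Cnga2, which encodes the main subunit of the olfactory channel, carried a peak in all 6 mutant libraries and in none of the 6 wild-type libraries. The sequences below are the RefSeq start windows (build GRCm38.p6, which shares coordinates with mm10), 250 bases before to 50 after a transcription start, of the 3 channel subunits and of the cyclase. They are shown because they set a start with this pattern beside starts without a peak and beside one open in nearly every library. At Cnga2 capitals mark the 61 bases under the peak of all 6 mutant libraries. At Adcy3 they mark the bases under a peak in 9 of the 10 libraries that had one there. The windows of Cnga4 and Cngb1 had a peak in 0 libraries and stand in lower case.
Cnga2, chrX:71991599-71991898, + strand: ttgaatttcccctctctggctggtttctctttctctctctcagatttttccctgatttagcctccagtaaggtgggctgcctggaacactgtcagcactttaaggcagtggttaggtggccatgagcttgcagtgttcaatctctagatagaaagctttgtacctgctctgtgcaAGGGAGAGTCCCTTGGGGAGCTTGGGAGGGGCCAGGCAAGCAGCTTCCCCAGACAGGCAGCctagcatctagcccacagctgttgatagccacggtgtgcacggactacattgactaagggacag
Cnga4, chr7:105404318-105404617, + strand: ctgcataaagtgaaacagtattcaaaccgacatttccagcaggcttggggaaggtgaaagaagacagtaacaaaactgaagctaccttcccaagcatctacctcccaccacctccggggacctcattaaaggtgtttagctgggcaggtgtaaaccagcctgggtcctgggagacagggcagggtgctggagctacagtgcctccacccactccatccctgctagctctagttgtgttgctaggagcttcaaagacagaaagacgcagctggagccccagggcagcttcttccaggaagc
Cngb1, chr8:95306536-95306835, - strand: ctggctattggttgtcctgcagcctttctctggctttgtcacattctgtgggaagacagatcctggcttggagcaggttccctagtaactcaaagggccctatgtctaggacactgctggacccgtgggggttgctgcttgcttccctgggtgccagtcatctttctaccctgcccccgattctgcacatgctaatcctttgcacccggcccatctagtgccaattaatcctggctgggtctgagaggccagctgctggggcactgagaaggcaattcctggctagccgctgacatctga
Adcy3, chr12:4133147-4133446, + strand: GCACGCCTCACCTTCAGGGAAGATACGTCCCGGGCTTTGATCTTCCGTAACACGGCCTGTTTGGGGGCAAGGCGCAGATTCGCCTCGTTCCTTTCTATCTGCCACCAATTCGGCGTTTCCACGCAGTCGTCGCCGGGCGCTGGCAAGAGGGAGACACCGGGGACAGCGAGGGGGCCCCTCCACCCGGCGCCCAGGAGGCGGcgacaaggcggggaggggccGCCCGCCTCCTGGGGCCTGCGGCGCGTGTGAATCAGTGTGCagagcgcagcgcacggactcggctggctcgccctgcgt

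The 6 Cnga2 peaks differed in width but shared a core just before the transcription start. Counted from the start at chromosome X, 71991849, the shared bases ran from 75 to 15 bases before it (71991774 to 71991834). All 6 peaks together spanned 71991662 to 71991884. In Aire -/- cells the peak was 104 bp wide in replicate 1 and 87 bp wide in replicate 2, against no peak in either of their wild types. In Aire +/C313Y cells it was 146 and 123 bp wide, and neither of their wild types had it. In Aire +/C442G cells it was 185 and 107 bp wide, again with no peak in either wild type. Presence at this start thus separated every mutant library from every wild-type library. In sorted bulk cells, fewer cells of a type and a less open site per cell cannot be told apart, and a peak not called means not called at a depth that is unknown.

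This pattern was rare over the genome. Of the 228401 regions formed by merging the peaks of the 12 lists, 115 (0.0504%) had a peak in all 6 mutant libraries and no wild-type library, and 0 had the reverse pattern. In the Aire -/- contrast alone 11.1% of regions were gained and 0.0429% lost, and the mutant lists there and in the C442G contrast were longer. The part of list length in this imbalance was not tested. Cnga2 was chosen with its peaks known, so the rarity of its pattern is description and no support. Of 26794 genes with a RefSeq start window, 4 (0.0149%) had a peak over a start in all 6 mutant and no wild-type library. Besides Cnga2 these were Hspb9, which encodes a small heat shock protein, Neurl1a, which encodes a ubiquitin ligase, and the noncoding gene Mir670hg, named here after their values were seen. The 115 regions overlapped the start windows of 2 genes, so not all of the 4 had the pattern in a single merged region. Cnga2 did. Counted over the whole span plus 1 kb, 2 genes (0.00925%) had this pattern, A2m and Slc17a3. Cnga2 was not among them, because wild-type replicate 1 of the C313Y set had a peak of 78 bp inside the gene, 8804 bp after its start.

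The Cnga2 start peaks were weak ones within their lists. Their fold enrichment, the authors' value over the caller's background, was 4.08 and 3.76 in the Aire -/- lists, and the −log10 q was 2.62 and 2.19. The same peak had folds of 3.55 and 4.38 and a −log10 q of 1.88 and 3.21 in the Aire +/C442G lists, where the lowest value of any peak lay just above 1. It was stronger than 48.7% and 37.8% of the peaks of the Aire -/- lists and than 25.9% and 39.4% of those of the Aire +/C442G lists. The C313Y lists hold positions only, and there the peak was wider than 47.8% and 41.4% of the others. At a −log10 q of at least 3, 1 of the 4 mutant lists with such values kept the peak. With lists cut to equal length within each contrast it was kept in 4 of 6 mutant libraries and lost in both Aire -/- lists, and with all 12 lists cut to 34047 peaks it was kept in 1, Aire +/C313Y replicate 3. Lists were shortened by −log10 p, but by width in the C313Y set, which has no strengths. All 4 mutant lists with strengths thus lost the peak at 34047 peaks. These settings only remove peaks, so the absence of the Cnga2 start peak from the wild-type libraries could not change under them.

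List length and the X chromosome were set beside this result, since Cnga2 is X-linked. The Aire -/- lists held 85826 and 94976 peaks against 34715 and 34047 in their wild types. The Aire +/C442G lists held 122326 and 115034, against 93659 and 94458 in their wild types. In the C313Y contrast the numbers overlapped, with 75830 and 57280 in heterozygotes and 73976 and 55861 in wild types. The part of list length in the presence of the Cnga2 peak was not tested. The share of peaks on X was 2.08% and 1.87% in Aire -/- lists and 2.25% and 1.60% in their wild types. It was 2.19% and 1.93% in Aire +/C313Y lists against 3.27% and 2.23%, and 1.88% and 1.94% in Aire +/C442G lists against 1.93% and 1.95%. No contrast had a higher share on X in both mutants than in both wild types. Peaks on Y, left out of all other counts, numbered 2 and 21 in Aire -/- lists against 2 and 9. They numbered 58 and 90 in Aire +/C313Y lists against 200 and 45, and 27 and 23 in Aire +/C442G lists against 4 and 4. The part of the sex of the animals in the Cnga2 peak was not tested.

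**Figure D1:**
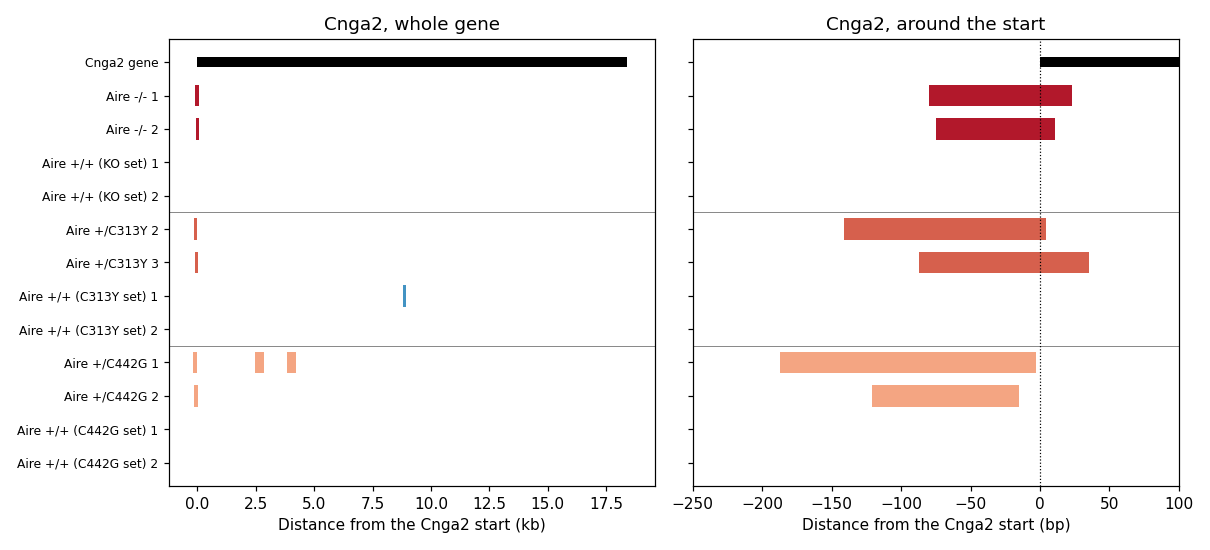
Peaks at Cnga2 in each of the 12 libraries, with distance from the gene start in kb over the whole gene (left) and in bp around the start (right). Each row is a library and each bar a peak (in the left panel drawn with a minimum width), mutants in red tones above their wild types in blue tones. The 6 mutant rows have a bar at the start and the 6 wild-type rows do not, and 1 wild type has a bar 8804 bp inside the gene.

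Other peaks lay around Cnga2. Within 50 kb of either gene end, the peaks at Cnga2 itself left out, the Aire -/- libraries had 3 and 4 peaks, against 1 and 0 in their wild types. The counts were 4 and 2 in Aire +/C313Y libraries against 5 and 1, which overlap, and 7 and 6 in Aire +/C442G libraries against 4 and 5. A region at 71946695 to 71946914 was called in 6 mutant and 3 wild-type libraries. A region at 71962206 to 71963049 was called in 5 mutant and 4 wild-type libraries, and one at 71972794 to 71973320 in 4 and 4. A region at 72022888 to 72023010, beyond the far end of Cnga2, was called in 5 mutant and 1 wild-type library. Inside the gene, Aire +/C442G replicate 1 had further peaks of 417 and 426 bp, 2455 and 3819 bp after the start, which no other library shared.

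The shared core of the Cnga2 peak held the palindrome CCCNNGGG, the core recognised by the EBF (Olf) family of transcription factors, which act in olfactory neurons and in B cells. The match began at position -66 from the start and lay wholly within the capitals of the Cnga2 sequence. The same letters occurred in the start windows of 4 of the 6 genes that had one, in 4 of 9 windows, and in 13.7% of all 32851 start windows. In Cnga4 the match began at position 24, in Cngb1 at position -129 and in 1 of the 3 Ano2 windows at position -67, and none of these windows had a peak in any library. The palindrome reads the same on both strands. The homeodomain core TAATTA, the TATA box TATAAA, the core of the cAMP response element TGACG and the ETS core CCGGAA, searched on both strands, occurred in 0 of the 9 windows, against 5.29%, 13.6%, 20.8% and 14.9% of all windows. The CCAAT box CCAAT occurred in 3 of the 9 (37.4% of all) and the AP-1 site TGANTCA in 1 (7.81%). The Cnga2 window held 2 CpG dinucleotides, the Cnga4 window 3 and the Cngb1 window 4, against 33 in the Adcy3 window that was open in 10 libraries and a median of 7 over all windows. These matches describe letters only.

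Cnga4, a subunit that modulates the channel, was at the other extreme, with 1 strong peak in every library. The region (chromosome 7, 105399875 to 105400529) lay across the first annotated base of the gene (span 105400024 to 105408775). The span of the neighbouring gene Fam160a2, 105371211 to 105400142, ends in the same place, so the peak cannot be assigned to either gene. It ended 4039 bp before the RefSeq start of Cnga4 whose window had no peak. The peak was 581 ± 4.24 bp wide in Aire -/- cells and 555 ± 19.8 bp in their wild types (SD, n = 2 each). It was 566.5 ± 37.5 bp in Aire +/C313Y cells against 576 ± 14.1 bp, and 632 ± 12.7 bp in Aire +/C442G cells against 583.5 ± 26.2 bp. Widths of the individual libraries ran from 540 to 641 bp. Its folds were 10.6 and 11.6 in the Aire -/- lists and 8.20 and 8.05 in their wild types. In the C442G set they overlapped, with 10.6 and 11.8 in heterozygotes and 10.6 and 11.2 in wild types. Fold is a value over the caller's background in each library, and depth is unknown. Here and at the genes below, folds of different lists therefore do not measure a difference in openness. Each of the 8 lists with strengths placed the Cnga4 peak above 96.9% or more of its other peaks.

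Cngb1, which encodes the beta subunit of the olfactory and of the rod channel, had a peak in all 12 libraries but none at its start. Its 10 regions lay inside the gene (chromosome 8, 95239043 to 95306585, on the minus strand). The one called in every library (95254788 to 95255310) lay 51275 bp after the start. There the folds were 8.91 and 7.90 in Aire -/- lists against 4.85 and 5.33 in their wild types. They were 10.3 and 13.7 in Aire +/C442G lists against 7.74 and 9.15. These lists differ in length and their depth is unknown, so the folds do not rank openness between them. Widths at this region overlapped between mutants and wild types in all 3 contrasts. Another region (95302546 to 95302671), which began 3914 bp after the start, was called in 6 of 6 mutant libraries and in 2 of 6 wild types, both of the C442G set. This narrow peak was 97 and 91 bp wide in Aire -/- cells and 89 and 104 bp wide in Aire +/C313Y cells, and absent from the wild types of both contrasts. In the C442G set it was 117 and 111 bp wide in heterozygotes and 111 and 99 bp in wild types. Together with the Cnga2 start it was the only member region gained in both the Aire -/- and the C313Y contrast.

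Gnal, the G protein alpha subunit of olfactory neurons and of the striatum, had 2 to 7 peaks in every library over its 138495 bp (chromosome 18, 67088298 to 67226792). Of its 14 regions 2 were called in all 12 libraries. The first, 67116023 to 67116209, lay inside the gene with folds of 13.2 and 10.2 in Aire -/- lists against 9.28 and 6.48 in their wild types, and 17.1 and 17.3 in Aire +/C442G lists against 16.2 and 13.8. The other, 67205219 to 67206072, also covered the first annotated base of Chmp1b (67205359 to 67207887), a gene of the membrane-remodelling ESCRT machinery that lies within the Gnal span, and cannot be assigned to Gnal alone. Another region, 67202913 to 67203062, was called in both Aire -/- libraries and neither of their wild types, in 1 Aire +/C313Y library and neither of its wild types, and in all 4 libraries of the C442G set. The first annotated base of Gnal had a peak nearby, of 396 bp, in 1 library only, Aire -/- replicate 1. A region at 67194707 to 67195088 was called in both Aire +/C442G libraries and in no other.

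Adcy3, the cyclase of olfactory cilia, was the one gene of the list with a peak over a RefSeq start window in most libraries, 10 of 12. A region at chromosome 12, 4132991 to 4133600, was called in 6 mutant and 5 wild-type libraries. It was missing from wild-type replicate 1 of the Aire -/- contrast. Its peaks were 454 and 560 bp wide in Aire +/C313Y cells and 421 and 357 bp wide in their wild types, so the groups did not overlap. They were 451 and 499 bp wide in Aire +/C442G cells and 486 and 478 bp wide in their wild types, which overlap. In the Aire -/- set the peaks of the 2 mutant libraries and the 1 wild type did not share any base common to all 3. A region near the other end of the gene (4208589 to 4209054), within the overlapping gene Cenpo, had the same 11 libraries. Its folds were 4.33 and 5.31 in the Aire -/- lists and 4.29 in the 1 wild type, and 7.74 and 7.89 in the Aire +/C442G lists against 7.16 and 6.72.

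**Figure D2:**
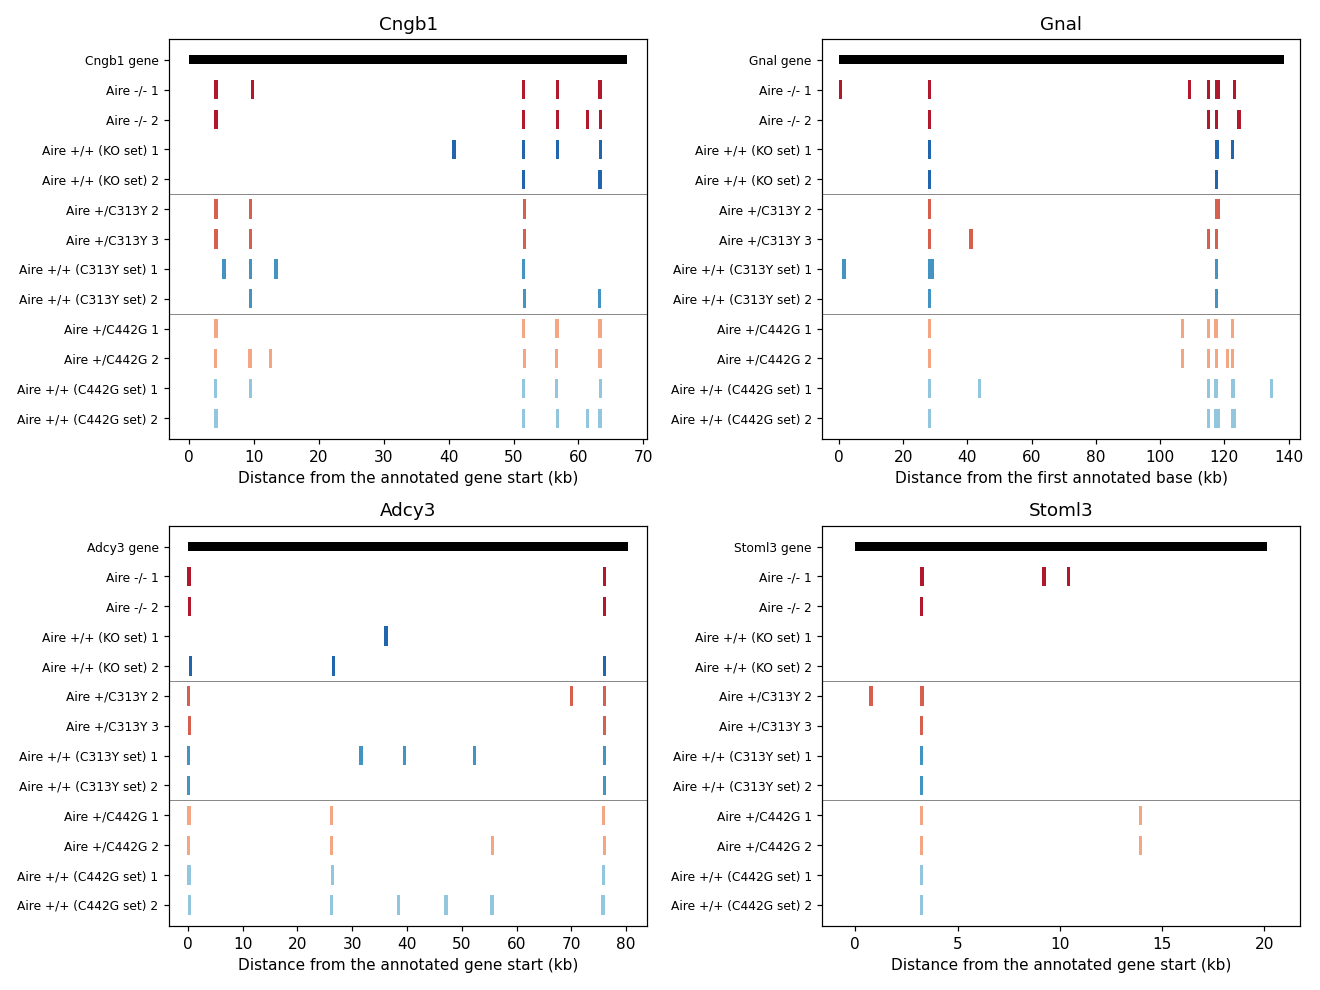
Peaks along Cngb1, Gnal, Adcy3 and Stoml3 in each library, with distance from the annotated gene start in kb (for Gnal from the first annotated base). Rows are libraries, mutants in red tones above their wild types in blue tones, bars are peaks drawn with a minimum width, and the black bar is the gene. The Stoml3 peak near 3 kb is missing from both wild types of the Aire -/- set and present in the other 10 rows, and the Cngb1 peak near 4 kb is present in all 6 mutant rows and in the 2 wild-type rows of the C442G set.

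Stoml3, a stomatin-like protein of olfactory cilia, had a single recurrent region, 53491859 to 53491981 on chromosome 3 (gene 53488707 to 53508863), and no peak over its start window in any library. Both Aire -/- libraries had this peak, at 86 and 91 bp, and neither of their wild types did. It was present in all 4 libraries of the C313Y set, at 85 and 86 bp in heterozygotes and 106 and 96 bp in wild types. In the C442G set it was 99 and 117 bp wide in heterozygotes and 93 and 104 bp in wild types. Its folds were 6.07 and 6.41 in Aire -/- lists, 8.40 and 9.72 in Aire +/C442G lists and 9.08 and 7.43 in their wild types. A further narrow region (53502573 to 53502661) was called in both Aire +/C442G libraries, at 87 and 84 bp, and in no other.

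Ano2, the calcium-activated chloride channel, had few peaks for its length of 349715 bp (chromosome 6, 125690419 to 126040133), and 7 of its 12 regions appeared in 1 library only. Aire -/- libraries had 3 and 1 peaks against 0 and 0 in their wild types. The 4 peaks lay at 4 different places, so the gene counted as gained while no region did. Their −log10 q ran from 1.06 to 1.35. Aire +/C313Y libraries had 2 and 0 peaks against 6 and 2, and Aire +/C442G libraries 2 and 1 against 2 and 2. The most frequent region (126033772 to 126033986) was called in 1 mutant library, Aire +/C442G replicate 1, and in 4 wild types, those of the C313Y and C442G sets. At its start Ano2 had a peak in 1 mutant and 2 wild-type libraries.

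Omp, which encodes the olfactory marker protein, the standard marker of mature olfactory neurons, had a peak in 1 of 12 libraries. It was 77 bp wide in Aire -/- replicate 1, with a fold of 3.06, and stronger than 2.25% of that list. Omp (chromosome 7, 98143359 to 98145447) lies within the span of Capn5 (98121559 to 98178946). A region at 98141266 to 98141573, 1786 bp outside Omp and thus beyond the 1 kb window, was called in all 12 libraries. Of all members' regions the one that reached farthest beyond its gene but stayed inside the window began at position -187, at Cnga2. The nearest one outside lay 1153 bp beyond Omp, in 1 library.

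**Figure D3:**
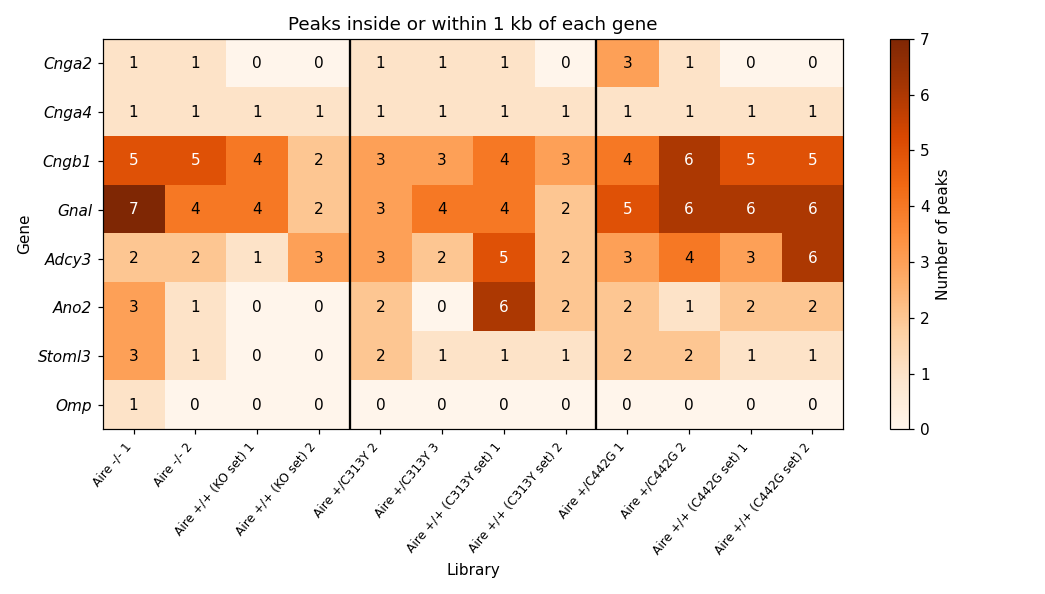
Number of peaks inside or within 1 kb of each gene (rows) in each library (columns), with mutants left of their wild types and black lines between the 3 contrasts. Cnga4 had 1 peak in each library, Omp 1 peak in 1 library, and Cnga2, Ano2 and Stoml3 had 0 in both wild types of the Aire -/- set.

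As a list, genes were gained in the Aire -/- and the C442G contrast and not in the C313Y contrast. Gained means a peak in both mutant libraries and in neither wild type of the contrast, and lost the reverse. In Aire -/- cells 3 of 8 genes were gained (Cnga2, Ano2 and Stoml3), where 5.42% of all genes were gained, and 0 were lost (0.0277% of all genes). In Aire +/C313Y cells 0 were gained (0.578% of all) and 0 lost (0.439%), the Cnga2 start notwithstanding. Without wild-type replicate 1 of that set, Cnga2 was gained. In Aire +/C442G cells 1 was gained, Cnga2 (0.749% of all), and 0 lost (0.162%). Of the members' 58 regions 4 had a peak in all 12 libraries (8.16% of all regions) and 34 in 1 library (44.2%). Of the 6 members with a start window, 0 had a peak there in all 12 libraries (32.4% of all genes with one) and 3 had none in any (46.6%). By region, 4 of the members' 58 regions were gained in Aire -/- cells (11.1% of all regions) and 0 lost (0.0429%). In Aire +/C313Y cells 2 were gained (2.31%) and 2, both in Ano2, were lost (0.719%). In Aire +/C442G cells 3 were gained (5.01%) and 0 lost (0.708%). Of the 3 genes gained in Aire -/- cells, Stoml3 had a peak in all 4 wild types of the other sets, and with lists of equal length it alone was gained.

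The number of libraries with a peak differed widely among the members. Cnga4, Cngb1, Gnal and Adcy3 had a peak in all 12 libraries, as had 58.7% of all genes. Stoml3 had one in 10, Ano2 in 9, Cnga2 in 7 and Omp in 1, and no member was without a peak, against 16.1% of all genes. A long gene has more room for a peak. Cngb1, Gnal and Adcy3 were longer than 82.8%, 92.6% and 85.6% of all genes, and Cnga4 than 32.9%. With gene ends only, Cnga4 had a peak in 12 libraries, Adcy3 in 11, Gnal in 1 and Cngb1 in 0. Over their joint length the 8 genes had fewer peaks than genes at large in each of the 12 libraries. Ano2, with 349715 bp and few peaks, weighs most in this joint value, which does not hold for each gene. In Aire -/- replicate 1 single genes ran from 0.853 peaks per 100 kb at Ano2 to 24.5 at Omp. The Omp value comes from 1 weak peak of 77 bp at a gene of 2089 bp, and no other library had it. The Aire -/- libraries had 3.28 and 2.14 peaks per 100 kb of member span against 5.17 and 5.73 per 100 kb over all genes, and their wild types 1.43 and 1.14 against 2.36 and 2.35. By rank of the strongest peak, Cnga4 and Gnal stood above 94.7% or more of every list that carries strengths. The Cnga4 peak is the one shared with the end of Fam160a2, and in some lists the Gnal peak is the one over Chmp1b. In wild-type replicate 2 of the Aire -/- set the 94.7% belonged to the Chmp1b region, and the Gnal region at 67116023 to 67116209 stood above 81.3%.

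**Figure D4:**
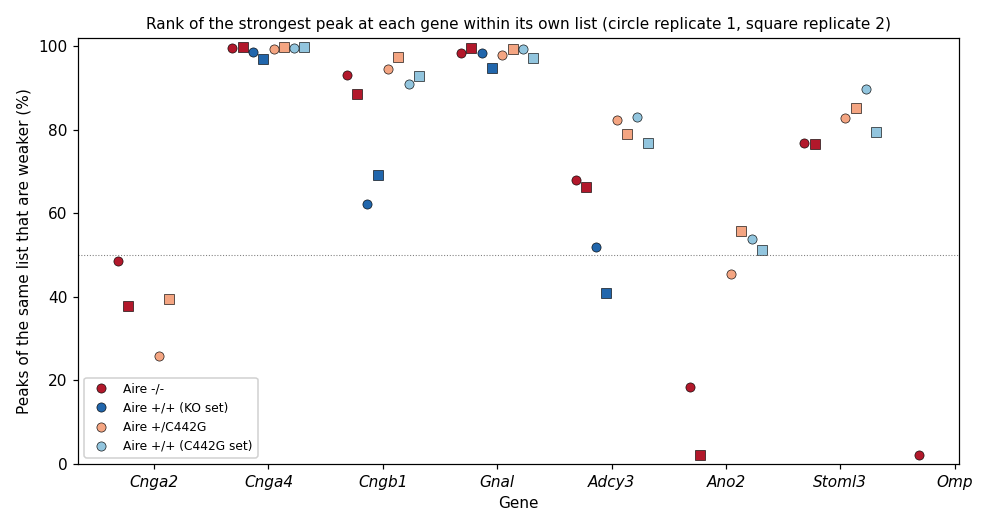
Rank of the strongest peak at each gene, as the percentage of weaker peaks in the same list by −log10 p, for the 8 lists that carry strengths. Circles are replicate 1 and squares replicate 2, colours give the group, and the dotted line marks 50%. Cnga4 and Gnal lie near the top in every list, the Cnga2 points all lie below the line, and a missing point means no peak. The Cnga4 points and some Gnal points come from peaks shared with Fam160a2 and Chmp1b.

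Most other genes of the pathway had a peak somewhere in the span plus 1 kb in every library. Genes of these lists that were neither gained nor lost are named after their values were seen. Of 22 other genes of olfactory transduction and its adaptation, 19 had a peak in all 12 libraries (58.7% of all genes). None was gained or lost in any contrast. Rtp2, which aids the transport of odorant receptors to the membrane, had no peak in any library, its relative Rtp1 had one in 1, and Gng13, a G protein gamma subunit, had one in 6. Among channel subunits of photoreceptors Cnga3 had a peak in 12 libraries, Cngb3 in 10 and Cnga1 in 2, with 0 gained or lost. Of 6 transcription factors of olfactory neurons Ebf1, Ebf2, Lhx2 and Ldb1 had a peak in all 12 libraries, Ebf3 in 11 and Emx2 in 3, with 0 gained or lost. Of 8 paralogs of the members with wider expression, 6 had a peak in all 12 libraries and none was gained or lost. Among 5 genes of taste and tuft cell transduction Trpm5, their cation channel, was gained in Aire -/- cells and had a peak in the other 8 libraries. Itpr3 had a peak in 12 libraries, Plcb2 in 7, Tas1r3 in 2 and Gnat3 in 0.

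Only 1 gene matched Cnga2 in all 12 calls over span plus 1 kb, Nlrp4e, an oocyte gene of the NLRP family, and 22 genes matched in 11. Of these the nearest in covered length were Treml2, Tmprss11c, Mmp11 and Wnt1. The covered length, summed as a difference over the 12 libraries, was 1555 bp away for Nlrp4e and 1150 to 1323 bp away for the other 4.

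Markers of the sorted cells and of other cells were counted, where 58.7% of all genes had a peak in all 12 libraries. Presence of a peak is therefore only a weak check of cell identity. Of 8 mTEChi markers, Aire, Cd80, Cd86, H2-Aa, Epcam, Krt14 and Foxn1 had a peak in all 12 libraries, the knockout included, while Krt5 had none in the 4 libraries of the Aire -/- set. The peak at Aire does not check the knockout label, because the part of the gene removed is not given in the labels. Of markers of other cells, those of neuroendocrine mimetic cells were open in 3 of 4 cases in all 12 libraries, tuft cells 2 of 4, ciliated cells 2 of 3, T cells 1 of 4, dendritic cells, fibroblasts and endothelium 1 of 3 each, and cortical epithelium 1 of 2. In Aire -/- cells Neurod1, Trpm5, Tmem212, Clec9a and Kdr were gained, 1 marker of each of 5 of these lists, where 5.42% of all genes were gained. Of the T cell, fibroblast and cortical markers 0 were gained. Of the T cell markers, named after their values were seen, Lck had a peak in 12 libraries, Cd4 in 11, Cd3e in 2 and Cd8a in 0. Tuft markers with a peak numbered 4 in both Aire -/- libraries and 2 to 3 in their wild types, and neuroendocrine ones 4 and 3. Of all genes, 73.9% and 74.9% had a peak in the Aire -/- lists, against 64.2% and 63.5% in their wild types. These marker counts therefore do not measure numbers of tuft or neuroendocrine cells. In Aire +/C313Y cells 0 were gained and Dcn was lost, and in Aire +/C442G cells 0 were gained or lost. Of 6 markers of olfactory sensory neurons, Gng8, Ebf2 and Lhx2 had a peak in all 12 libraries and the other 3 are members. The part of marker levels in the calls at Cnga2 was not tested.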

How the data were processed

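The labels' protocols describe enzymatic digestion of the thymus, sorting of mTEChi and a modified ATAC-seq protocol, with 12 libraries in 6 groups of 2. Build mm10 and the tools cutadapt, Bowtie2, Picard and MACS2 are named, without versions, per the submitters' processing notes. No source says whether reads were shifted or which background MACS2 used. The authors called peaks per library. For 8 libraries the deposited lists give each peak's position, a score (10 times −log10 q), its fold enrichment, a ratio over the caller's background, and −log10 p and −log10 q. The 4 deposited lists of the C313Y set hold positions only, with no other value from the authors. Depth is unknown, as the lists carry no counts, and a peak's rank was taken within its own list. Folds of different lists are printed side by side without a common scale.

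Peaks outside chromosomes 1 to 19 and X were left out. A gene had a peak when one overlapped its RefSeq span (GRCm38.p6) plus 1 kb by at least 1 bp, and regions were made by merging peaks of the 12 lists that overlapped by at least 1 bp. Of the 8 members 6 matched a RefSeq start window. Exons, introns and UTRs were not told apart. The members and lists were chosen with earlier results of these data known, and no test was made. With 2 libraries against 2 an exact permutation test cannot go below p = 0.333. Genes named outside the members were those gained or lost, list counts and the 5 genes most like Cnga2 by the number of equal calls, then covered length. Exceptions are marked. The list of B cell markers is not reported here. Counting was tested on simulated lists. Python 3.11.15, pandas 2.3.3, numpy 2.4.6 and matplotlib 3.10.9 were used. Alternatives were other windows, peak thresholds, list lengths, overlap rules, controls and replicates. Start windows and the settings for the Cnga2 start were added after seeing the data.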

Additional observations from a re-analysis of the deposited data

Results flagged for a closer look

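Ano2 was singled out because its mutant libraries moved in opposite directions in 2 contrasts. The length covered by peaks was 474.5 bp on average in Aire -/- libraries and 0 bp in their wild types, but 159.5 bp in Aire +/C442G libraries and 353.5 bp in theirs (n = 2 per group). Aire +/C313Y libraries had 143.5 bp and their wild types 621 bp, where the libraries of the groups overlapped. The mutant minus wild-type difference was 668.5 bp higher in the Aire -/- than in the C442G contrast. This difference was not tested.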

How the results depend on the processing

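Of 180 values recomputed under other settings, 157 stayed within 1.5 times of the reported count and 23 moved. This tally is no measure of robustness, because it compares counts and not which genes made them up. Some values also could not move, such as the wild-type count at the Cnga2 start. No paired analysis was possible because the results come from no test. Genes gained in Aire -/- cells were 3, but 1 with lists of equal length (Stoml3, with 1.06% of all genes gained), 1 with peaks over start windows only (Cnga2, 3.58%) and 0 with all 6 wild types as controls (0.236%). At a −log10 q of at least 3 they were 2 (9.04%), Stoml3 and Adcy3, so that Cnga2 and Ano2 were no longer gained and Adcy3 was. Genes gained in Aire +/C313Y cells were 0, but 1 (Cnga2) with gene ends only (0.846% of all genes), with lists of equal length (0.536%) and with start windows only (0.735%). Leaving out each library in turn, this count ranged from 0 to 1 (Cnga2, without wild-type replicate 1, 2.07%), and the lost count from 0 to 1 (Ano2, without heterozygote replicate 2, 1.72%). Genes gained in Aire +/C442G cells were 1, but 0 within the span alone (0.809%), at a −log10 q of at least 3 (1.18%) and with all 6 wild types as controls (0.388%). Counting libraries with a peak, Cnga2 had 7, but 4 at a −log10 q of at least 3 (3 of them C313Y lists, which carry no q) and 4 with equal lists. With gene ends only Cngb1 had 0, Gnal 1, Ano2 4 and Stoml3 1. Omp, at 1, had 12 with the widest window and 0 at a −log10 q of at least 2 or 3 or with equal lists. The Cnga2 start was called in 6 mutant libraries, 5 at a −log10 q of at least 2, 3 at a −log10 q of at least 3 (2 of them C313Y lists) and 1 with all lists at 34047 peaks. It was called in 0 wild-type libraries, a count that these settings could not change because they only remove peaks. The cause of these shifts was not tested. Unknown depth limits every absence.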
